A study of Mus musculus with 12 samples.

Results

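Immediate early genes are transcribed within minutes of a stimulus, without the need for new protein, and their messages are mostly short-lived. The transcripts described here come from 35 such genes and related stress-response genes, taken as a list of symbols that was selected on their function and on measured values, the fold changes of the deposited comparison of treated with untreated cells and the levels across doses. All 35 symbols were found among the 46729 entries of the expression table. Of these genes, 29 passed the filter on low values, which asked for an average of 1 FPKM or more across groups and for no group at 0. Fosb, Fosl1, Egr3, Nr4a1, Nr4a2 and Nr4a3 stayed under it.

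The cells were macrophages grown from the bone marrow of C57BL6 mice over 10 days with interleukin-3 and L-929 conditioned medium, which supplies colony-stimulating factor 1. One group was left untreated, and the others received 0.2, 2 or 20 U/ml of interferon gamma (IFNγ) for 8 h. The labels name no mutation or transgene, and the 12 libraries were 3 per group. The expression table gives 1 FPKM value (fragments per kilobase of transcript, scaled to library size) per gene and group, so no difference between doses has a replicate error or a test. A second deposited table compares a condition called untreated with one called treated and names no dose. Of the macrophage markers, Cd68 was between 1255 and 1814 FPKM over the groups, Csf1r between 340 and 418, Adgre1 between 137 and 189, Itgam (in a merged entry) between 63.1 and 89.9 and Mertk between 8.64 and 14.0. Fcgr1 had a log2 ratio of 3.39 at 20 U/ml against untreated cells and Mrc1 one of -1.84. All 7 markers of T and NK cells, all 4 erythroid markers and all 5 markers of mast cells and basophils were under 1 FPKM in every group. Lyz2, also a macrophage marker, was listed at 0 in 3 groups and at 7449 FPKM at 20 U/ml, and it was left out of ratios. Of the other marker lists, 3 of 5 B cell, 4 of 5 dendritic cell, 4 of 5 stromal and endothelial, 2 of 5 osteoclast and 5 of 7 neutrophil genes were under 1 FPKM in every group. The summed level of the neutrophil markers, mostly from S100a8, was 16.9 FPKM in untreated cells and 34.9 at the top dose. That of the osteoclast markers was 38.8 and 23.7, and their part in the results was not tested. S100a8 was at 13.3 and 30.4 FPKM in these groups and S100a9 at 2.32 and 2.68. Of the osteoclast markers Ctsk was at 31.9 and 15.7 FPKM in these groups, Acp5 at 6.77 and 6.18 and Ocstamp at 0.142 and 1.80. Depth is unknown, and in bulk RNA fewer expressing cells and less RNA per cell cannot be told apart.

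In macrophages, signals from growth factors, microbes or cyclic AMP reach these genes through MAP kinases, serum response factor, which binds the CArG box, and CREB, which binds the cyclic AMP response element (CRE). FOS and JUN proteins pair to form the AP-1 transcription factor, whereas DUSP phosphatases, the RNA-binding protein Zfp36 and the PDE4 phosphodiesterases limit the same signals.

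The promoters of 27 of the 35 genes were matched in RefSeq (GRCm38.p6). The windows of 300 bases run from 250 before to 50 after the annotated start of transcription. Fosl1, Egr1, Egr3, Ier2, Dusp4, Myc, Osm and Crem had no window, and sites outside the windows were not searched. The core of the CRE, TGACG on either strand, was found in 17 of these 27 genes (63.0%), against 36.3% of 9153 genes that had a test in the deposited comparison and 23.0% of all 27025 genes. The windows of the listed genes had a median GC content of 60.8%, close to the 60.3% of the tested genes and above the 52.7% of all windows. The stretches below hold the matches of 6 of the genes, shown because they have the most copies of the core (the Nr4a genes), the full CRE (Dusp1 and Btg2) or, for Fos, the namesake of the AP-1 genes. They read 5′ to 3′ in the direction of transcription, and capitals mark TGACG or its reverse complement CGTCA.
Nr4a1 promoter, chr15:101266596-101266850, plus strand: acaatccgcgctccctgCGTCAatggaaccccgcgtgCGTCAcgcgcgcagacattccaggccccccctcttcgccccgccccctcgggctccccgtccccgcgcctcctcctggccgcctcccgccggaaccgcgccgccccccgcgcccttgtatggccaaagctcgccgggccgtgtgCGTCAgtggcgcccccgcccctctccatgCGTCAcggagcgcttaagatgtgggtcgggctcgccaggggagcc
Nr4a2 promoter, chr2:57124070-57124243, minus strand: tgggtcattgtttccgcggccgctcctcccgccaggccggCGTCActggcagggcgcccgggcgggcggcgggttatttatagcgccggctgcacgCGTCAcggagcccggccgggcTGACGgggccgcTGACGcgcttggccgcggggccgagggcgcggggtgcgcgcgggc
Nr4a3 promoter, chr4:48045055-48045202, plus strand: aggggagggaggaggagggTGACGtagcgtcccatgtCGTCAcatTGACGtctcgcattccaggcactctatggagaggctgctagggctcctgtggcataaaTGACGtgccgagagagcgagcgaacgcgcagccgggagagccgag
Dusp1 promoter, chr17:26508568-26508703, minus strand: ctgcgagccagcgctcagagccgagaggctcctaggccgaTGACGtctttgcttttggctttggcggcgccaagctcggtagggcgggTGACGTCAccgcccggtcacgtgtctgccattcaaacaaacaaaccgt
Btg2 promoter, chr1:134079274-134079361, minus strand: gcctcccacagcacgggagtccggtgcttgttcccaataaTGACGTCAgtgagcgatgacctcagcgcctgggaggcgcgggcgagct
Fos promoter, chr12:85473721-85473868, plus strand: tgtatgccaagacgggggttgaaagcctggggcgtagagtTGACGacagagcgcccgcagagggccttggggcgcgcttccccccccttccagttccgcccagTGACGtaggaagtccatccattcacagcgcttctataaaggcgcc

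The 3 Nr4a promoters each held 4 copies of the core. In Dusp1 and Btg2 the capitals include the full palindromic CRE, TGACGTCA, which contains the core on both strands and begins at position -143 in Dusp1 and at -166 in Btg2, where -1 is the last base before the annotated start. With Maff, 3 of the 27 genes (11.1%) had the full CRE, against 3.75% of tested genes and 2.03% of all genes. The Fos cores began at -129 and -66. A zinc-finger site of the EGR family, GCGNGGGCG, was found in 11 of the 27 genes (40.7%), against 1102 of the 9153 tested genes and 6.27% of all genes.

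The AP-1 site TGANTCA was in no window of the 27 genes, against 6.42% of tested genes and 8.97% of all genes. The CArG box was in Egr2, Dusp5 and Zfp36 (11.1%), against 1.47% of tested genes and 1.81% of all genes. The windows of Egr2, which has several annotated starts, held 2 separate copies, and the one printed, in capitals, began at -72 from the start of its window's transcript. These counts describe letters in short windows and no binding was measured. Since the genes were chosen on function and on measured values, nothing is read from the motif shares against those of other genes.
Egr2 promoter, chr10:67537454-67537543, plus strand: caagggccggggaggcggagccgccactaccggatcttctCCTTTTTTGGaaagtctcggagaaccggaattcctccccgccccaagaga

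At 20 U/ml, 3 of the 29 measured members were at least 2-fold higher than in untreated cells and 3 were at least 2-fold lower, on the log2(FPKM + 1) scale that understates differences of low genes. Arid5a, Crem and Nfil3 were the higher ones, and Dusp2, Dusp4 and Egr2 the lower ones. Over all 11580 entries used, 6.51% were higher and 2.94% lower by this rule, which is a rule of size and not a test. The median log2 ratio of the members was 0.18 and that of all entries 0.01. Since the members were chosen with these values known, nothing is read from their share against the background.

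No member was called in either direction against untreated cells at the lower doses. Their log2 ratios against untreated cells ran from -0.79 to 0.69 at 2 U/ml, where 2.50% of all entries were higher and 0.760% lower, and from -0.57 to 0.58 at 0.2 U/ml, where 5.23% were higher and 0.328% lower. Between 0.2 and 2 U/ml no member was called, against 1.51% of entries higher and 6.26% lower at 2 U/ml, but Pde4d was called lower with a pseudocount of 0.01. From 2 to 20 U/ml Arid5a was called, with a log2 ratio of 1.53, against 2.90% of entries higher and 1.11% lower. With pseudocounts of 0.1 and 0.01, Egr2, Dusp2 and Dusp4 were called lower in that comparison as well, and the ratios of their FPKM values were 0.475, 0.464 and 0.468. The 3 comparisons with untreated cells share the same untreated value. At 0.2 U/ml, 20 of the 29 members were below untreated cells, against 5760 of the 11580 entries used. That group had the largest sum of FPKM, and the part of this in the members' values at 0.2 U/ml was not tested.

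**Figure D1:**
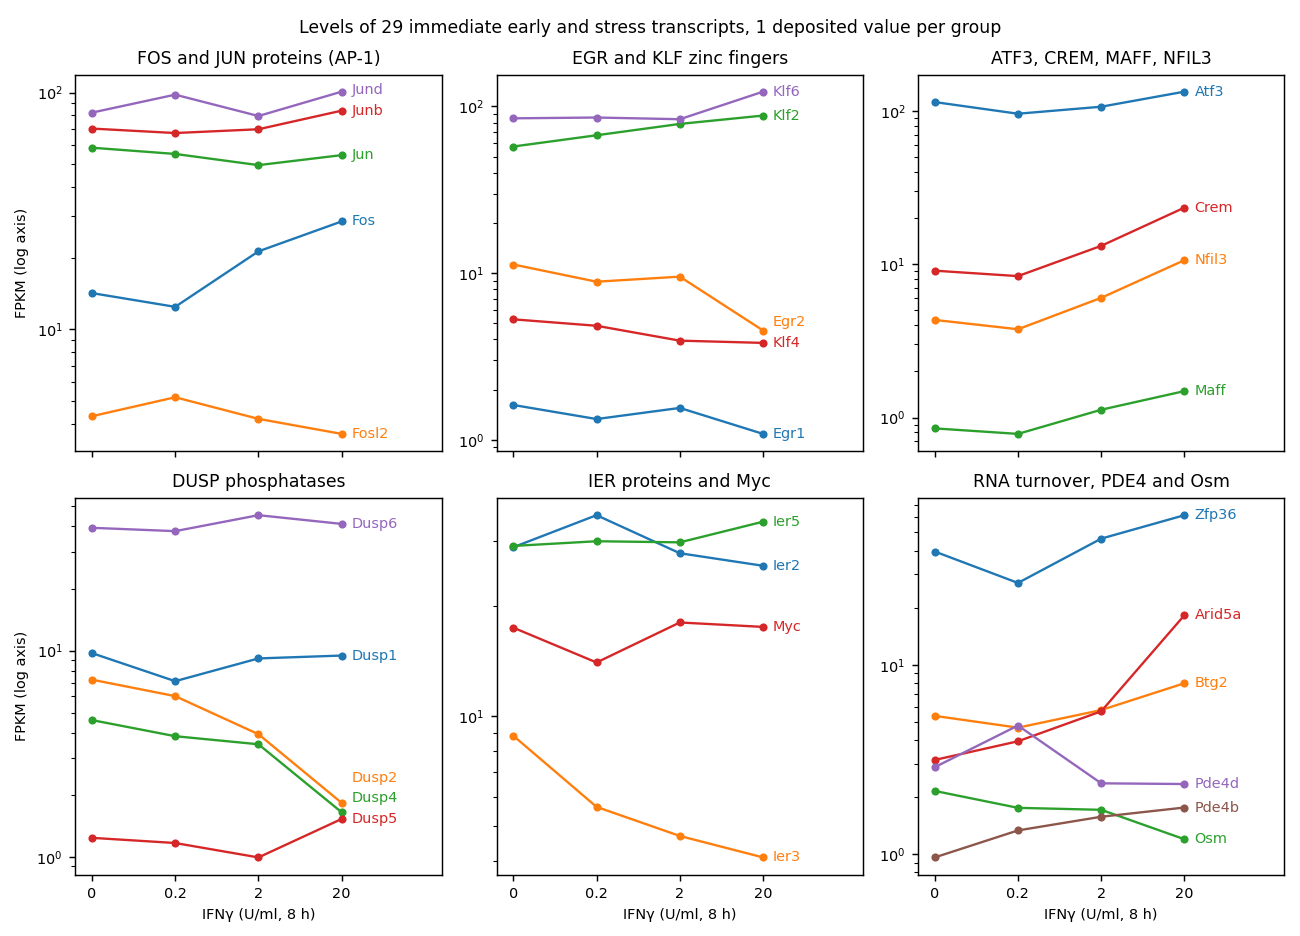
FPKM (log axis) of the 29 measured members in untreated cells (0) and after 8 h with 0.2, 2 or 20 U/ml of IFNγ, 1 panel per functional group. Each point is the 1 deposited value of a group, lines join the points of a gene and there are no error bars. Arid5a goes from 3.14 to 18.3 FPKM, while Dusp2 and Dusp4 have their lowest values at 20 U/ml, 1.82 and 1.64 FPKM.

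In what follows, 4 values of a gene stand in the order untreated, 0.2, 2 and 20 U/ml. The AP-1 genes differed little with dose apart from Fos. Fos, on chromosome 12 (GRCm38, 85473890 to 85477273), was at 14.2, 12.4, 21.3 and 28.6 FPKM from untreated cells up to the top dose. It was lowest at 0.2 U/ml and highest at 20 U/ml, with a log2 ratio of 0.96 that lies just under the 2-fold rule. It was called higher with pseudocounts of 0.1 and 0.01. Fosl2, a FOS relative without the activating tail of Fos, was at 4.30, 5.17, 4.19 and 3.62 FPKM in the same order of doses.

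The JUN genes were among the most abundant members in every group. Jun was at 58.5, 55.0, 49.4 and 54.4 FPKM from untreated cells up to the top dose, a log2 ratio of -0.10 at the top dose. Junb was at 70.4, 67.4, 70.0 and 83.8 FPKM in that order. Jund was at 82.3, 97.9, 79.6 and 101 FPKM. None of the 3 varied by more than 1.27-fold over the groups. Fosb, between 0.111 and 0.204 FPKM, and Fosl1, between 0.201 and 0.220 FPKM, were near the bottom of the range in all groups. Junb has a further entry, between 0.0367 and 0.409 FPKM, whose position is not given in the table. Antisense genes overlap Jun and Jund, and the protein-coding gene Prdx2 overlaps the annotated span of Junb. Their reads cannot be told apart since no source names the strand of counting. Non-coding genes overlap Atf3, Crem and Pde4d as well.

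Of the EGR zinc-finger factors only Egr2 was past the size rule at the top dose. Egr2, on chromosome 10 from 67535475 to 67542188 (GRCm38) and active in macrophage and lymphocyte differentiation, was at 11.3, 8.88, 9.52 and 4.52 FPKM from untreated cells up to the top dose. The highest dose stood apart from the other 3 values, with a log2 ratio of -1.15 to untreated cells and -0.93 to 2 U/ml. Egr1 was at 1.62, 1.33, 1.55 and 1.08 FPKM in the same order, a log2 ratio of -0.33 at 20 U/ml. Egr3 stayed between 0.128 and 0.681 FPKM.

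The basic leucine zipper factors outside AP-1 held 2 of the 3 higher members. Crem, which encodes activators and the cyclic AMP-inducible repressor ICER, was at 9.08, 8.37, 13.2 and 23.4 FPKM from untreated cells up to the top dose. Its values were close together up to 0.2 U/ml and then higher at each dose, to a log2 ratio of 1.28. Nfil3, a repressor known in lymphoid development and circadian control, lies on chromosome 13 from 52967209 to 52981073 (GRCm38) and was at 4.34, 3.77, 6.04 and 10.6 FPKM. It had the same shape, lowest at 0.2 U/ml and highest at 20 U/ml, with a log2 ratio of 1.12.

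Atf3, a stress-induced factor that restrains inflammatory genes, was the most abundant member in untreated cells. Its values were 114, 95.9, 107 and 134 FPKM, with a log2 ratio of 0.22 at the top dose. Maff, a small MAF protein, was at 0.851, 0.783, 1.13 and 1.49 FPKM, so it passed the filter through its values at the higher doses.

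None of the 3 KLF factors reached 2-fold at any dose. Klf2, a factor that holds macrophages in a quiescent state, was at 57.5, 67.2, 78.6 and 88.2 FPKM from untreated cells up to the top dose. It was higher at each dose than at the one before, with a log2 ratio of 0.61 at the top. Klf6 was at 84.9, 85.8, 83.8 and 123 FPKM, flat up to 2 U/ml and highest at 20 U/ml, a log2 ratio of 0.53. Klf4, tied to alternative activation of macrophages, was at 5.28, 4.83, 3.93 and 3.81 FPKM and so was lower at each dose, with a log2 ratio of -0.38.

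Of the DUSP phosphatases, which remove the activating phosphates from MAP kinases, Dusp2 and Dusp4 were lower and 3 others were not past the size rule. Dusp2, on chromosome 2 (GRCm38, 127336159 to 127338376), was at 7.23, 6.01, 3.93 and 1.82 FPKM from untreated cells up to the top dose. Dusp4, on chromosome 8 (GRCm38, 34807297 to 34819894), was at 4.60, 3.84, 3.51 and 1.64 FPKM. Both were lower at each dose than at the one before, with log2 ratios of -1.54 and -1.08 at 20 U/ml.

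Dusp6, the cytoplasmic phosphatase selective for ERK, was the most abundant of the family at 39.4, 38.0, 45.4 and 41.1 FPKM, a log2 ratio of 0.06. Dusp1, which acts on p38 and JNK and restrains inflammatory cytokines, was at 9.72, 7.11, 9.16 and 9.46 FPKM, with a log2 ratio of -0.04. The annotated span of Dusp1 overlaps the protein-coding gene Ergic1 and pseudogenes. Dusp5, which an antisense gene overlaps, was at 1.24, 1.17, 0.993 and 1.53 FPKM. None of these 3 moved steadily with dose. With upper-quartile scaling the sign of the ratio of Dusp6 at 20 U/ml turned, to -0.05, and with quantile normalization it was -0.11.

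Of the 3 immediate early response (IER) genes, none was called by the size rule on log2(FPKM + 1), and Ier3 came closest. Ier3, a regulator of apoptosis on chromosome 17 (GRCm38, 35821684 to 35822923), was at 8.82, 5.64, 4.69 and 4.10 FPKM from untreated cells up to the top dose. Most of its difference was present at the lowest dose, and its log2 ratio of -0.95 at 20 U/ml lies just short of the rule. The ratio of its FPKM values was 0.465, and Ier3 was called lower with pseudocounts of 0.1 and 0.01 and with upper-quartile scaling and quantile normalization. Ier2 was at 28.9, 35.4, 27.9 and 25.7 FPKM and Ier5 at 29.2, 30.0, 29.8 and 34.0 FPKM.

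Myc, the growth-promoting factor, was at 17.4, 14.0, 18.0 and 17.5 FPKM, with its lowest value at 0.2 U/ml. Its log2 ratio of 0.01 at 20 U/ml turned to -0.10 with upper-quartile scaling and to -0.13 with quantile normalization.

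Of the regulators of mRNA stability, Arid5a differed most of all members. Arid5a binds and stabilises inflammatory messages such as that of Il6, and lies on chromosome 1 from 36307733 to 36324029 (GRCm38). It was at 3.14, 3.94, 5.68 and 18.3 FPKM from untreated cells up to the top dose. It was higher at each dose, with most of the difference between the 2 highest doses, and its log2 ratio was 2.22.

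Zfp36 encodes tristetraprolin, which destabilises messages with AU-rich elements, and was at 39.7, 27.1, 46.4 and 61.7 FPKM from untreated cells up to the top dose. It was lowest at 0.2 U/ml, with log2 ratios of -0.54 there and 0.62 at 20 U/ml. An antisense gene overlaps it. Btg2, an antiproliferative factor that recruits deadenylases, was at 5.37, 4.65, 5.77 and 7.99 FPKM.

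Osm, the cytokine oncostatin M, was at 2.16, 1.75, 1.71 and 1.20 FPKM, lower at each dose, with a log2 ratio of -0.52. The phosphodiesterases Pde4b and Pde4d, which break down cyclic AMP, did not move together. Pde4b was at 0.960, 1.33, 1.57 and 1.76 FPKM, higher at each dose, with a log2 ratio of 0.49. Pde4d was at 2.88, 4.78, 2.36 and 2.34 FPKM, highest at 0.2 U/ml, where its log2 ratio was 0.58.

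The NR4A orphan nuclear receptors stayed under the filter at every dose. Nr4a1 was between 0.556 and 0.908 FPKM and Nr4a2 between 0.309 and 0.864 FPKM. Nr4a3 was listed at 0 in untreated cells and reached 0.0156 FPKM at 20 U/ml.

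Over the 4 groups, 3 of the 29 measured members (Arid5a, Klf2 and Pde4b) had a higher value at every step of dose, against 9.28% of all entries used. A further 5 (Dusp2, Dusp4, Ier3, Klf4 and Osm) had a lower value at every step, against 6.54% of all entries, and 21 had no steady order. With 1 value per group, an order of 4 values has no error attached.

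**Figure D2:**
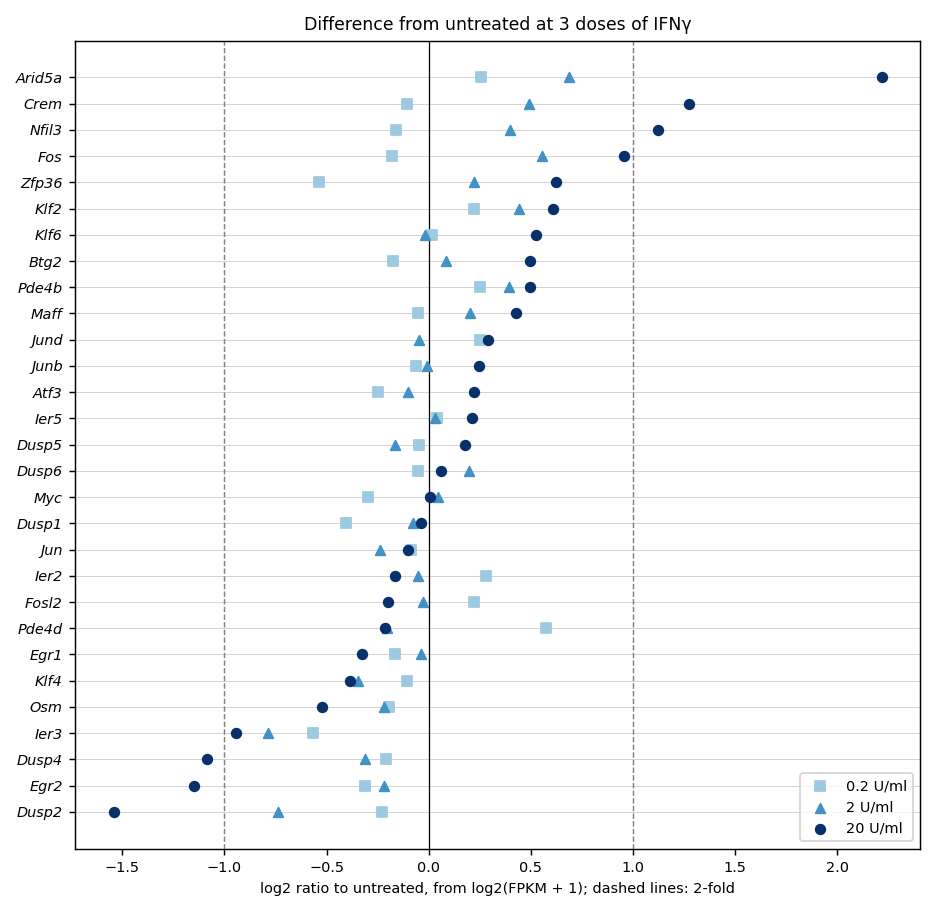
Log2 ratio to untreated cells, from log2(FPKM + 1), of the 29 measured members at 0.2 U/ml (squares), 2 U/ml (triangles) and 20 U/ml (circles) of IFNγ, ordered by the value at 20 U/ml. Dashed lines mark 2-fold; 3 circles lie beyond the line on each side, and no square or triangle does.

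The second table gave a different picture of the same genes. It holds fold changes and q-values for 2 conditions, and the levels behind them were not used, since the treated condition could be matched to none of the groups. In the authors' deposited table all 35 members had a test, and 33 were higher and 2 lower in treated cells at a q-value under 0.05. Of all 12854 tested rows in the authors' deposited table, 35.1% were higher and 33.8% lower at that threshold. By at least 2-fold, the authors' deposited table had 32 members higher and 1 lower, against 23.7% of tested rows higher and 22.4% lower. The median log2 fold change in the authors' deposited table was 3.32 for the members and 0.04 for the rows with a finite value. Since the members were chosen with these values in view, the counts are a description and support nothing.

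A q-value of 9.94892e-05, the smallest in the authors' deposited table, stands beside 33 of the members and is shared by 6460 rows, so q does not rank them. Maff (q = 0.00786) and Dusp2 (q = 0.0315) are the other members in the authors' deposited table.

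**Figure D3:**
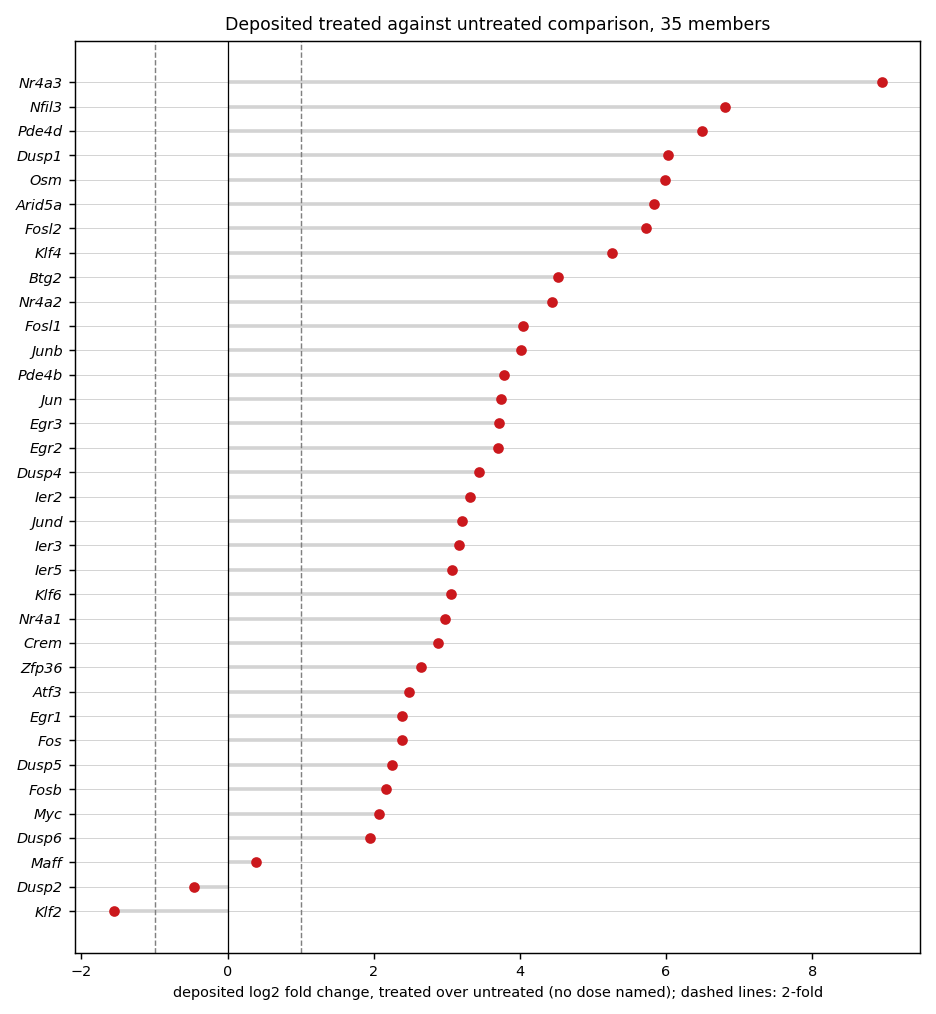
Log2 fold change of treated over untreated in the authors' deposited comparison, which names no dose, for the 35 members in order of size, with dashed lines at 2-fold. Points right of 0 are higher in treated cells: 33 members lie there, led by Nr4a3 at 8.96, and Dusp2 and Klf2 lie to the left.

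The NR4A receptors, ligand-independent transcription factors, had high fold changes. Nr4a3, on chromosome 4 (GRCm38, 48045153 to 48086447), had a log2 fold change of 8.96, the highest of 12742 finite tested rows in the authors' deposited table. Nr4a2 was at 4.44 and Nr4a1 at 2.97 on that scale in the authors' deposited table. In the dose series none of the 3 passed the filter on low values, so they have no ratio to set beside these.

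Members that limit signalling were also far up. Dusp1 had a log2 fold change of 6.03 and Dusp4 one of 3.45 in the authors' deposited table. Dusp5 was at 2.25 and Dusp6 at 1.95 there, while Dusp2 was lower, at -0.47 in the authors' deposited table. The phosphatases thus spanned a wide range, with Dusp2 the exception in sign. Pde4d had a log2 fold change of 6.49 and Pde4b one of 3.78 in the authors' deposited table, so both phosphodiesterases were higher, unlike their split across doses.

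All 3 regulators of mRNA stability were higher. Arid5a had a log2 fold change of 5.84, Btg2 one of 4.52 and Zfp36 one of 2.65 in the authors' deposited table. The locus given for Zfp36 in the authors' deposited table runs on over Med29 and an antisense gene, whose reads cannot be told apart from its own. The cytokine Osm was at 5.99 in the authors' deposited table.

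All 7 AP-1 genes were higher by over 4-fold. Fosl2 led the FOS genes with a log2 fold change of 5.73 in the authors' deposited table, ahead of Fosl1 at 4.04, Fos at 2.38 and Fosb at 2.17. The JUN genes were closer together in the authors' deposited table, with Junb at 4.02, Jun at 3.75 and Jund at 3.21. The locus of Jun in the authors' deposited table, from 95049034 to 95167318 on chromosome 4, spans its antisense gene and other non-coding genes as well. The locus of Fosl1 there covers the protein-coding gene Ccdc85b, and that of Jund an antisense gene. A further Junb row of the authors' deposited table, at a locus that also holds Rnaseh2a and Prdx2, had a log2 fold change of -0.32 (q = 0.762).

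Of the other transcription factors, Nfil3 had a log2 fold change of 6.81 and Klf4 one of 5.26 in the authors' deposited table. Egr3 and Egr2 were alike at 3.71 and 3.70 in the authors' deposited table, and Egr1, often used as the reference immediate early gene, was at 2.39. Klf6 was at 3.06, Crem at 2.87, Atf3 at 2.48 and Myc at 2.07 in the authors' deposited table. The IER genes lay close together in the authors' deposited table, with Ier2 at 3.32, Ier3 at 3.17 and Ier5 at 3.08.

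The exceptions were Klf2, Dusp2 and Maff. Klf2 had a log2 fold change of -1.56 in the authors' deposited table, the only member lower by 2-fold. Dusp2, named above, and Maff, at 0.39 in the authors' deposited table, stayed within 2-fold.

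Side by side, the tables placed the members differently. Arid5a, Crem and Nfil3 were higher by 2-fold both at 20 U/ml and in the authors' deposited table. Egr2 and Dusp4 were past 2-fold in opposite directions, lower at 20 U/ml and higher in the authors' deposited table. A further 22 of the 29 measured members were not called at 20 U/ml but were past 2-fold in the authors' deposited table. Among these were Dusp1, Jun and Myc, with log2 ratios of -0.04, -0.10 and 0.01 at 20 U/ml, and Klf2, with 0.61 at 20 U/ml and -1.56 in the authors' deposited table. The calls at 20 U/ml use log2(FPKM + 1), whereas the fold changes of the authors' deposited table were copied unchanged, so the scales differ. On plain ratios of FPKM at 20 U/ml, Ier3 (0.465) would join Egr2 and Dusp4. Fos (2.01) would join the members higher in both. Whether the untreated condition of that comparison shares libraries with the untreated group is not known from the labels or headers.

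**Figure D4:**
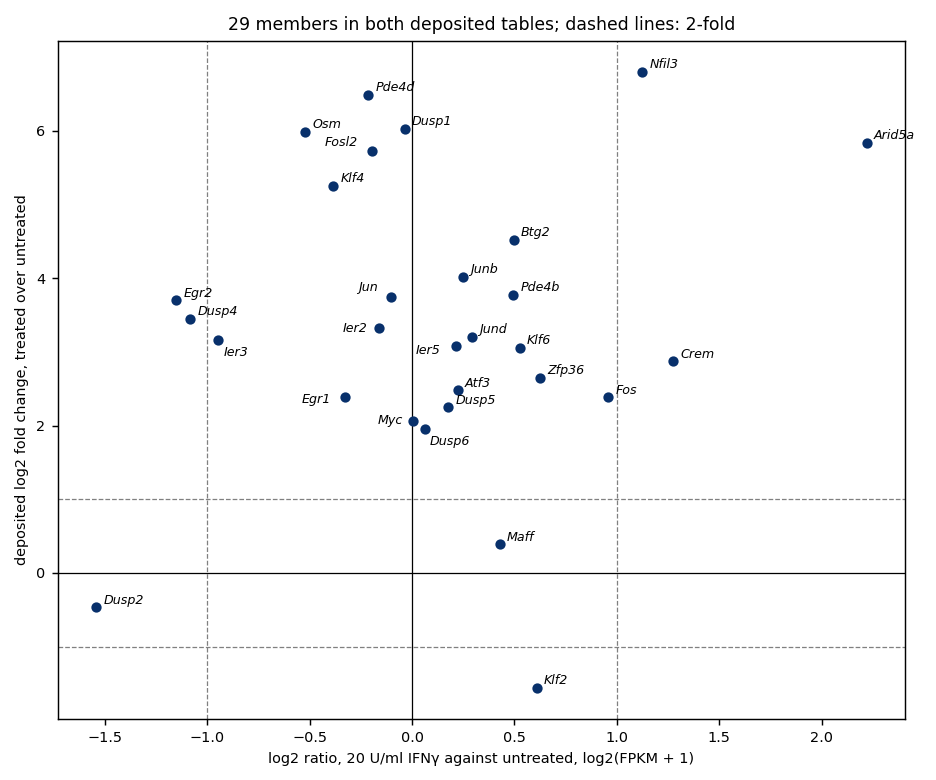
Log2 ratio at 20 U/ml against untreated cells (x axis) and log2 fold change of treated over untreated in the authors' deposited table (y axis) for the 29 measured members, with dashed lines at 2-fold. The x axis uses log2(FPKM + 1). Most points lie near 0 on it and above 1 on the y axis. Egr2 and Dusp4 lie beyond the lines at upper left.

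Other lists gave context for the members. Of 38 other immediate early genes that were measured, 3 were at least 2-fold higher and 3 at least 2-fold lower at 20 U/ml, and their median log2 ratio was 0.13. The growth arrest gene Gadd45a was the lowest of them, at 32.2, 22.6, 12.4 and 8.71 FPKM. The chemokine Cxcl2, at 4.73 FPKM in untreated cells and 1.03 at 20 U/ml, was next. Btg1, a relative of Btg2, was at 27.9 and 75.4 FPKM in the same groups. The authors' deposited table had 40 of 43 other immediate early genes higher and 1 lower, with log2 fold changes of 4.39 for Gadd45a, 3.99 for Cxcl2 and 4.96 for Btg1.

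The lists of genes upstream of the members held none past the size rule at 20 U/ml. Of 23 genes of the MAP kinase cascade and 6 of serum response factor and its cofactors, none was called at 20 U/ml, with medians of 0.15 and 0.08. Mapk9 came closest, at 12.5 FPKM in untreated cells and 25.8 at 20 U/ml. These values are over 2-fold apart, but its log2(FPKM + 1) ratio of 0.99 lies just under the rule. The authors' deposited table had 14 of 23 MAP kinase cascade genes higher and 6 lower (median log2 fold change 0.82) and 4 of 7 genes of the serum response factor list higher. Of 21 genes of cyclic AMP and CREB signalling none differed 2-fold at 20 U/ml, 1 was lower at 2 U/ml (Crebbp) and 3 were higher at 0.2 U/ml. These were Crebbp at 53.6 FPKM in untreated cells and 224 with 0.2 U/ml, Akap13 at 35.1 and 115 and Prkar2a at 37.2 and 88.3. The 0.2 U/ml group differed more widely, with 5.23% of all entries higher than in untreated cells against 2.50% at 2 U/ml. It also had the largest sum of FPKM, and the part of this in these values was not tested. On the cyclic AMP and CREB list 14 of 21 were higher and 5 lower in the authors' deposited table (median 1.28). Among 5 further MAP kinase phosphatases Dusp10, which acts on p38 and JNK, was at 1.08, 1.60, 2.58 and 11.6 FPKM. Its log2 ratio of 2.60 at the top dose was opposite in sign to those of Dusp2 and Dusp4, and it was at 2.75 in the authors' deposited table. Of the 8 further phosphatases tested in the authors' deposited table, 5 were higher and 1 lower.

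Of 21 other basic leucine zipper factors, 3 were higher by 2-fold and 1 lower at 20 U/ml, led by Batf2 at 3.04, 8.44, 27.7 and 89.8 FPKM. The authors' deposited table had 15 of 21 higher and 4 lower, with Batf2 among the lower ones at -2.09. Of 5 other KLF factors none differed 2-fold at 20 U/ml, and 4 of 5 were higher in the authors' deposited table. Of 8 heat shock genes 3 were higher by 2-fold at 20 U/ml, among them Hspa1b at 0.398 FPKM in untreated cells and 6.22 at 20 U/ml and Hspa1a at 0.353 and 4.62. Hspa1a and Hspa1b were under 1 FPKM in the other 3 groups and passed the filter through the 20 U/ml group alone. The authors' deposited table had 5 of 9 heat shock genes higher and 4 lower.

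The IFNγ response genes were higher across the doses and mixed in the other table. All 12 on the list were at least 2-fold higher at 20 U/ml, with a median log2 ratio of 4.57, 11 at 2 U/ml and 5 at 0.2 U/ml. Gbp2, a guanylate-binding protein, was at 8.13, 20.8, 150 and 343 FPKM from untreated cells up to the top dose. Of the 9 with a test, the authors' deposited table had 4 higher, 2 lower and 3 not past the threshold, and it gave Gbp2 a log2 fold change of 0.28 (q = 0.310). All 7 macrophage markers with a test were lower in treated cells in the authors' deposited table, with Csf1r at -0.55, and Gata2, a marker of mast cells and basophils, was at 8.42 while the other 4 markers on that list had no test. Their part in the members' values was not tested.

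**Figure D5:**
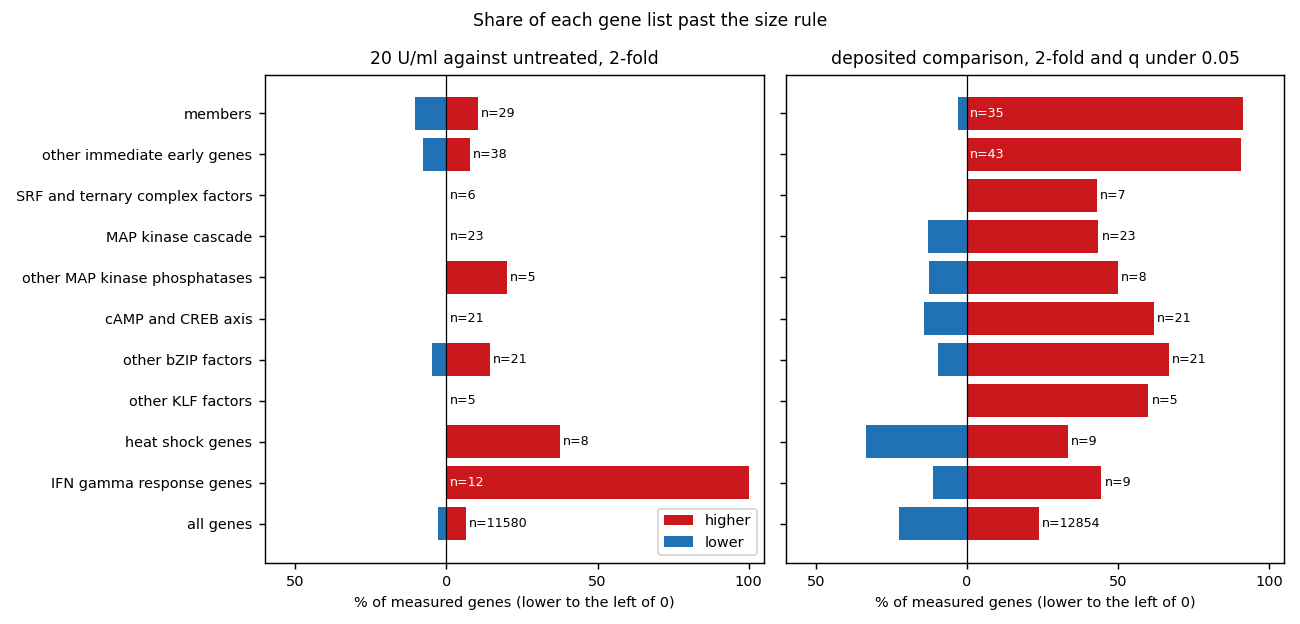
Percent of the measured genes of each list that were higher (red, right of 0) or lower (blue, left of 0) by 2-fold at 20 U/ml (left panel) and by 2-fold at q under 0.05 in the authors' deposited table (right panel), with the number measured beside each bar. All 12 IFNγ response genes are higher in the left panel, and 32 of 35 members are higher in the right panel.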

How the data were processed

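RNA from 12 libraries in 4 groups was sequenced. The labels do not say whether the 3 libraries of a group came from separate animals or cultures, and the label of the highest dose gives U without a volume, read as U/ml. Per the submitters' processing notes, the authors used Cuffdiff 2.1.1, Cufflinks 2.1.1 and TopHat2 2.1.1 on build mm10. FPKM values are 1 per group in the deposited expression table, per the file headers; the untreated column names no unit and was read as FPKM from its range. Neither the way libraries of a group were combined nor the strand of counting is given in the sources used here. The authors' deposited comparison holds log2 fold changes, a test score, p-values and q-values, per the file headers, and these were copied unchanged. Rows with status OK count as tested, and 2 columns of levels that could not be matched to groups were not used.

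Differences of log2(FPKM + 1) were computed with Python 3.11.15 and pandas 2.3.3 over the 11580 entries with a mean of at least 1 FPKM and no 0. An entry was called at a log2 ratio of at least 1 in size, a rule of size, since 1 value per group allows no limma test. The calculation was tested on simulated data. Sums of FPKM over all entries ran from 769698 in untreated cells to 1025967 at 0.2 U/ml. Medians of the entries used ran from 12.3 to 13.3. FPKM keeps no depth, so no interval is given.

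The members and the gene lists were chosen with earlier results of these data known. All members are named, and list genes are drawn from the 4 of a list that differed most at 20 U/ml, besides the markers and Gbp2, named after their values were seen. Crebbp, Akap13 and Prkar2a were named for their calls at the lower doses. Also chosen after values were seen were the Junb row of the comparison, which is the one overlapping the RefSeq gene, the set of printed promoters and the tested genes as a motif background. Positions are from GENCODE on GRCm38, the assembly of mm10, and promoter sequences from RefSeq (GRCm38.p6); motifs were searched on both strands. Alternatives were other pseudocounts, filters, scalings, a 1.5-fold rule and leaving out merged entries.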

Additional observations from a re-analysis of the deposited data

Results flagged for a closer look

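Egr2 and Dusp4 drew attention because they were past 2-fold in opposite directions in the 2 deposited tables. Egr2 had a log2 ratio of -1.15 at 20 U/ml of IFNγ against untreated cells, and a log2 fold change of 3.70 in the authors' deposited table of treated against untreated cells. Dusp4 had a log2 ratio of -1.08 at 20 U/ml, and a log2 fold change of 3.45 in the authors' deposited table. The ratios at 20 U/ml use log2(FPKM + 1). On plain FPKM values Ier3, with a ratio of 0.465 at 20 U/ml and a log2 fold change of 3.17 in the authors' deposited table, was past 2-fold in opposite directions too. The difference between the tables was not tested.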

How the results depend on the processing

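No value has a replicate error, the depth is unknown and FPKM depends on the other genes of a library. No paired analysis was possible because the expression table holds 1 value per group, and no fit without a library was run. Of the counts and medians of the members under the alternatives, 115 stayed close to the reported ones and 16 moved, where close means within 1.5 times for a count above 0 and within 0.1 for a log2 value. Of the members' own log2 ratios 171 stayed close and 51 moved, and no called ratio changed sign. The other filters and leaving out merged entries cannot change a gene's own ratio. Many of the 171 were therefore fixed in advance, and all 51 came from the other pseudocounts and scalings.

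With pseudocounts of 0.1 and of 0.01, 3 members were lower at 20 than at 2 U/ml instead of 0, and with 0.01, 1 was lower at 2 than at 0.2 U/ml. Without a filter the median log2 ratio of the members at 20 U/ml was 0.06125 instead of 0.18, and with quantile normalization it was 0.06121, and -0.2227 at 0.2 U/ml. With a mean of at least 5 FPKM, which removes Dusp2 and Dusp4 and leaves 19 members, 1 member was lower at 20 U/ml instead of 3, and the medians were 0.2231 for 2 against 0.2 U/ml and 0.2577 for 20 against 2 U/ml. With a 1.5-fold rule 6 members were higher at 20 U/ml, 1 was higher and 2 were lower at 2 U/ml, 3 were higher and 1 lower at 2 than at 0.2 U/ml, and 3 were higher and 3 lower at 20 than at 2 U/ml. That a looser rule or a smaller pseudocount calls more genes, and a stricter filter fewer, follows from its construction, and the other causes were not tested.

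Pseudocounts of 0.1 and 0.01 added Fos to the higher and Ier3 to the lower members at 20 U/ml, and upper-quartile scaling and quantile normalization added Ier3 alone. Under these scalings the median of all entries at 20 U/ml moved from 0.01 to -0.09 and -0.08, and at 0.2 U/ml quantile normalization moved it from 0.00 to -0.12. At 20 U/ml the whole table had 754 higher and 340 lower entries, against 1464 and 1112 with the 1.5-fold rule, and 539 and 572 lower ones with the smaller pseudocounts. The 88 lower entries at 2 U/ml became 58 to 397 under the alternatives, the 38 at 0.2 U/ml became 24 to 164 and the 128 at 20 against 2 U/ml up to 572. With the 1.5-fold rule, higher entries went from 289 to 619 at 2 U/ml, from 606 to 1346 at 0.2 U/ml, from 336 to 890 at 20 against 2 U/ml and from 175 to 668 at 2 against 0.2 U/ml, where lower ones went from 725 to 1533.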
